A study of Homo sapiens with 12 samples.

Results

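18DS is the chimeric small molecule of this study, designed to inhibit both the lipid kinase PI3K and the BET proteins, and JQ1 inhibits BET proteins alone. The comparison of the 2 compounds at one dose and time shows which transcripts differed between a BET inhibitor with a PI3K-inhibiting part and a BET inhibitor without one. The compounds are different molecules, and whether an equal dose inhibited BET proteins equally was not tested. A difference between them therefore cannot be assigned to the PI3K-inhibiting part alone. It used 3 libraries of OPM2 cells given 18DS at 250 nM and 3 given JQ1 at 250 nM, that is 6 of the 12 libraries of the study, all collected at 2 h. OPM2 is an established human multiple myeloma line of malignant plasma cell origin. The 2 other groups, of 3 libraries each, received DMSO vehicle or 1 µM BKM120 (buparlisib, a PI3K inhibitor). No group received JQ1 together with BKM120, every group is the same single cell line, and each library is described as a separate biological replicate. Transcripts were counted by QuantSeq, which sequences the 3' end of polyadenylated RNA, so counts were not scaled by transcript length. Of 63152 gene identifiers 13180 had enough counts to be tested, and all of these were compared.

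BET proteins bind acetylated histones and help to release RNA polymerase from pausing through the kinase P-TEFb. In myeloma cells they sustain transcription of MYC and other genes under strong enhancers, while histone genes and HEXIM1 typically rise when they are inhibited. PI3K acts downstream of growth factor receptors and activates the kinase AKT, which phosphorylates FOXO transcription factors and keeps them out of the nucleus. Loss of PI3K signalling thus lets FOXO factors switch on genes such as IRS2, KLF2 and BCL2L11, and lowers the activity of SREBP, the transcription factor of cholesterol and fatty acid synthesis genes.

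Library totals were 5501895 to 7692013 counts over the 12 libraries. At that depth the log2 fold change of a gene between 18DS and JQ1 had a median standard error (SE) of 0.169. The libraries carried the plasma cell identity of the line, with all 11 identity markers tested and a summed level of 3122 to 3189.5 CPM (counts relative to the library total) in 18DS and 3156 to 3216 CPM in JQ1. Of 12 T and NK cell markers 4 were at 0 in all 6 libraries and none passed the filter on low counts, and of 12 myeloid markers 3 were at 0 and 1 passed. The summed T and NK markers came to 0.172 to 0.6500 CPM in JQ1 and 0.8500 to 1.38 CPM in 18DS, and the summed myeloid markers to 1.20 to 2.34 CPM and 3.37 to 6.58 CPM, and the part of these traces in the results was not tested. Apart from VIM, none of 11 epithelial and fibroblast markers exceeded 1.23 CPM. The 18DS libraries were not alike. On the first principal component of the 6 libraries, which held 35.3% of the variance, the JQ1 libraries scored -16.3 to -15.2, and 18DS replicates 1, 2 and 3 scored -1.37, 36.2 and 12.3. Replicate 2 was the 18DS library farthest from JQ1 for 219 of the 313 genes called higher (70.0%) and for 144 of the 235 called lower (61.3%). Transcript GC content moved in the same order. The median deviation of GC-rich genes minus that of GC-poor genes (upper against lower quartile of GC content) was -0.10 to -0.03 log2 units in JQ1, and 0.02, 0.26 and 0.15 in 18DS replicates 1, 2 and 3. Protein-coding genes called higher had a median transcript GC content of 58.2% and those called lower 45.9%, against 48.1% in all tested protein-coding genes. With offsets that level this tilt in each library, 417 genes were called, 342 of them among the original calls in the same direction, and the medians were 52.6% and 52.5%. Transcript length differed too. Its median was 2065 bases in the protein-coding genes originally called higher and 3237.5 bases in those called lower, against 3391 bases in all tested ones. The part of RNA or library quality in these differences was not tested.

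**Figure D1:**
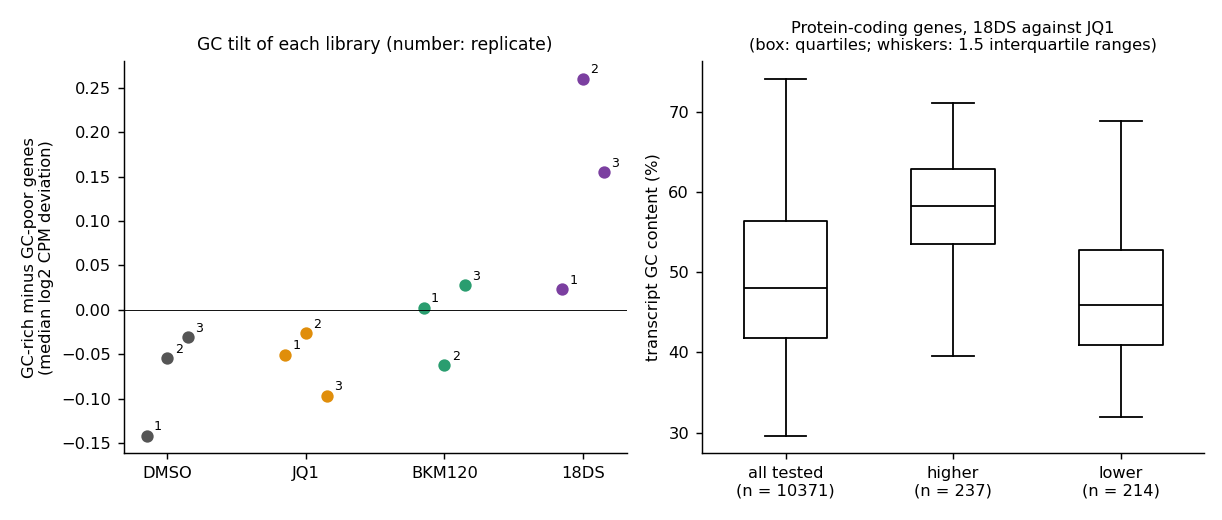
Left, the tilt of each library toward GC-rich transcripts (median log2 CPM deviation of the upper GC quartile of genes minus that of the lower quartile; each point is 1 library, numbered by replicate): 18DS replicate 2 stands highest at 0.26 and the JQ1 libraries lie between -0.10 and -0.03. Right, transcript GC content in percent of all tested protein-coding genes and of those called higher or lower with 18DS against JQ1, with medians of 48.1%, 58.2% and 45.9%.

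In all, 548 genes differed between 18DS and JQ1 (4.16% of those tested), 313 higher (2.37%) and 235 lower (1.78%) with 18DS. The shares of 2.37% and 1.78% are the background for the counts of the gene lists below. A gene was called where the edgeR quasi-likelihood test gave a Benjamini-Hochberg adjusted p under 0.05 over all tested genes. The 18DS and JQ1 libraries did not overlap in 98.7% of genes called higher and 97.9% of those called lower. Of all tested genes, 11.8% were higher with 18DS without overlap and 12.2% lower. A lack of overlap therefore adds little to a call. Most differences were small. The median log2 fold change was 0.43 in genes called higher and -0.51 in genes called lower, and 27 and 13 genes respectively differed by more than 2-fold. The split between directions moved with the scaling, from 208 higher and 414 lower with library totals to 372 higher and 207 lower when libraries were scaled by their upper quartile. The count was 215 without 18DS replicate 2, 159 without replicate 3 and 1027 without replicate 1, and it was 317, 123 and 105 without JQ1 replicates 1, 2 and 3. Of the 78 called genes picked by the rule for named genes, 26 were called under every alternative setting that gave them an adjusted p. There were 17 alternative settings, of which 16 gave DEPP1 and BOLA1 an adjusted p. These 26 genes are said below to be called in every fit. None of the 78 changed direction under these settings.

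**Figure D2:**
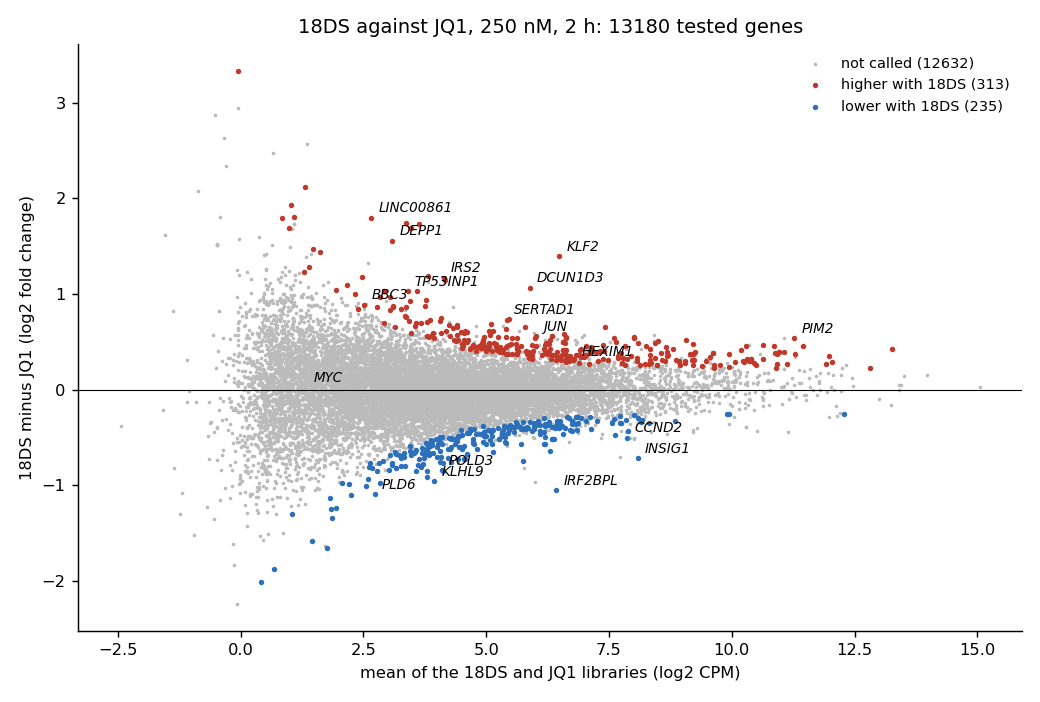
The log2 fold change of 18DS against JQ1 (y axis) plotted against the mean level over the 6 libraries in log2 CPM (x axis) for 13180 tested genes, each a point, with the 313 genes called higher in red and the 235 called lower in blue. Most called genes lie within 1 log2 unit of 0, and LINC00861, DEPP1, KLF2 and IRS2 are labelled among the genes above that.

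FOXO-activated genes held several of the larger increases. Of 42 tested members 9 were higher with 18DS than with JQ1 and 0 lower, with a list median log2 fold change of 0.12 against -0.01 for all tested genes. DEPP1 (ENSG00000165507), a FOXO target that modulates autophagy, stood at 3.96, 4.55 and 4.403 CPM in the JQ1 libraries and at 13.2, 10.9 and 13.9 CPM in the 18DS libraries. Every 18DS library lay above every JQ1 library, a 2.95-fold difference (log2 fold change 1.56, SE 0.21, edgeR adjusted p = 3.57e-05). KLF2 (ENSG00000127528), a zinc finger transcription factor that holds lymphocytes in quiescence and directs their trafficking, stood at 59.2, 39.8 and 49.6 CPM with JQ1 and 132, 102 and 157 CPM with 18DS (log2 fold change 1.39, SE 0.16, edgeR adjusted p = 0.000731). The groups did not overlap, although 18DS replicate 2 was the lowest of its group for both genes.

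IRS2 (ENSG00000185950) encodes the adaptor that couples insulin and IGF1 receptors to PI3K. Its level was 9.46, 9.82 and 12.8 CPM with JQ1 and 22.97, 23.4 and 27.004 CPM with 18DS, 2.25-fold higher (log2 fold change 1.17, SE 0.17, edgeR adjusted p = 5.00e-05). TP53INP1, a stress-induced gene that promotes autophagy and cell death, was at 8.6002, 6.37 and 6.09 CPM with JQ1 and 16.5, 11.1 and 14.7 CPM with 18DS (log2 fold change 1.03, SE 0.18). BTG1, an antiproliferative partner of mRNA deadenylases, was more abundant and its change smaller, 162, 168 and 169.8 CPM against 229.9, 222 and 251 CPM (0.49, SE 0.08). In none of the 3 genes did a JQ1 library reach the lowest 18DS library. KLF2, IRS2, TP53INP1 and BTG1 were called in every fit, and DEPP1 in all 16 settings that gave it an adjusted p.

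Of the other called members, BBC3 (PUMA) and BCL2L11 (BIM) encode killer proteins of the BCL2 family and BCL6 a transcriptional repressor of germinal centre B cells. BBC3 was at 3.78, 4.37 and 3.88 CPM with JQ1 and 7.19, 6.15 and 8.84 CPM with 18DS (0.89, SE 0.23, edgeR adjusted p = 0.0238). BCL2L11 was at 25.3, 31.1 and 26.7 CPM and 35.7, 34.8 and 38.8 CPM (0.40, SE 0.11, edgeR adjusted p = 0.0364). BCL6 rose from 3.96, 2.73 and 3.24 CPM to 5.497, 7.73 and 6.79 CPM (1.00, SE 0.29, edgeR adjusted p = 0.0446). No libraries overlapped for these 3 genes, but their calls were lost when 18DS replicate 3 or any JQ1 library was left out, with adjusted p of up to 0.123, 0.143 and 0.169. BBC3 also lost its call with GC offsets (0.103), BCL2L11 with library totals, and BCL6 with library totals, limma-voom, no robust option and without 18DS replicate 2. The remaining called member, YPEL3, a growth-suppressing gene, differed by 0.70 (edgeR adjusted p = 0.0446). The list's count was 5 without 18DS replicate 3 or without any 1 JQ1 library, 8 without 18DS replicate 2, 9 without replicate 1, 6 with library totals and 7 with GC offsets, with 0 lower each time. PIK3IP1, a FOXO-responsive inhibitor of PI3K, was at 0.564, 0.702 and 0.316 CPM with 18DS and 0.344, 0 and 0.129 CPM with JQ1, too low for the difference to be called (edgeR adjusted p = 0.36999), and TXNIP had 0 counts in all 12 libraries.

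The 250 bases upstream of the RefSeq gene start (assembly GRCh38.p14, read 5′ to 3′ on the gene's strand) are shown for the 3 called list members whose promoter holds GTAAACA, the core of the FOXO binding motif, and then for IRS2, KLF2 and INSIG1, the last being the sterol gene with the smallest adjusted p. Capitals mark that core, or CAAAACA as the core of insulin response sequences, or the E-box CACGTG that MYC-MAX and related factors bind, and each was searched on both strands. DEPP1 lies on the minus strand (chr10:44978810-44979059) with GTAAACA 180 bases before the start. BTG1 (minus strand, chr12:92145847-92146096) holds it on the opposite strand, 209 bases before the start, where it reads TGTTTAC, and BCL2L11 (plus strand, chr2:111120664-111120913) 223 bases before. IRS2 (minus strand, chr13:109786584-109786833) holds CAAAACA on the opposite strand 40 bases before the start, where it reads TGTTTTG. INSIG1 (plus strand, chr7:155297628-155297877) holds CACGTG 55 bases before, and KLF2 (plus strand, chr19:16324576-16324825) holds none of the 3.
DEPP1: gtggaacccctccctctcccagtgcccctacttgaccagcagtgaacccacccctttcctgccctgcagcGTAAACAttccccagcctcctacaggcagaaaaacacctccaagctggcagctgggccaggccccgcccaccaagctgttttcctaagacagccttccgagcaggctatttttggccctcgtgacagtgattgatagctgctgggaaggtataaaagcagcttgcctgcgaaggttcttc
BTG1: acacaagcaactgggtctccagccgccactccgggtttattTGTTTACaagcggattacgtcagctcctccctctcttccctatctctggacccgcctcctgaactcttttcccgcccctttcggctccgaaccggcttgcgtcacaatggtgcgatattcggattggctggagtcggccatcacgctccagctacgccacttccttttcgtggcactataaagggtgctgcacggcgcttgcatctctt
BCL2L11: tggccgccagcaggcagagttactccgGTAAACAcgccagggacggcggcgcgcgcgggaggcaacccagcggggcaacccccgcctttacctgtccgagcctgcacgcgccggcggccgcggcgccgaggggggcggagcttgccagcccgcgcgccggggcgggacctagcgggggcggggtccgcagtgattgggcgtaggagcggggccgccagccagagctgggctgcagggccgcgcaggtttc
IRS2: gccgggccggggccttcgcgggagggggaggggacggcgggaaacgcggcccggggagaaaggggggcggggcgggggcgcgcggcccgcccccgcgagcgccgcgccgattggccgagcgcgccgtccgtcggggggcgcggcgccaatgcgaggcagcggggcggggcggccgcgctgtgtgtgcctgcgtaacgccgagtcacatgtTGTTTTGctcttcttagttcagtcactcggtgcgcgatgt
KLF2: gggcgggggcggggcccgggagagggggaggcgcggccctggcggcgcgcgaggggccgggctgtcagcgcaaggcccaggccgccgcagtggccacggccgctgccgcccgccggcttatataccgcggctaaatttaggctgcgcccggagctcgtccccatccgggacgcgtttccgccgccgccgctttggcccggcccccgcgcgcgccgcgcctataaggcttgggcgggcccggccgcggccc
INSIG1: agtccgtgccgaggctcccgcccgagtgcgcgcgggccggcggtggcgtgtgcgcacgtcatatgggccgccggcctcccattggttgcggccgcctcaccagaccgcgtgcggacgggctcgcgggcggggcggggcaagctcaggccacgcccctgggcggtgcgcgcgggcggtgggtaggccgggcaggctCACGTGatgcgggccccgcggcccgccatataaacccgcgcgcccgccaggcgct

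GTAAACA was found in 3 of the 8 called FOXO-list members with a promoter in the RefSeq table and in 3 of 27 members that were tested but not called. It was in 3.66% of all 27305 promoters of that length, CAAAACA was in 5.29% and CACGTG in 7.73%. Over all 202 genes called higher that had a promoter GTAAACA was in 5.45%, and over 175 called lower in 0.571%, against 2.94% of tested genes. CAAAACA was in 3.96% and 1.143% of these sets against 4.02% of tested genes, and CACGTG in 10.4% and 12.6% against 11.5%. These matches describe the letters of the window and not binding.

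**Figure D3:**
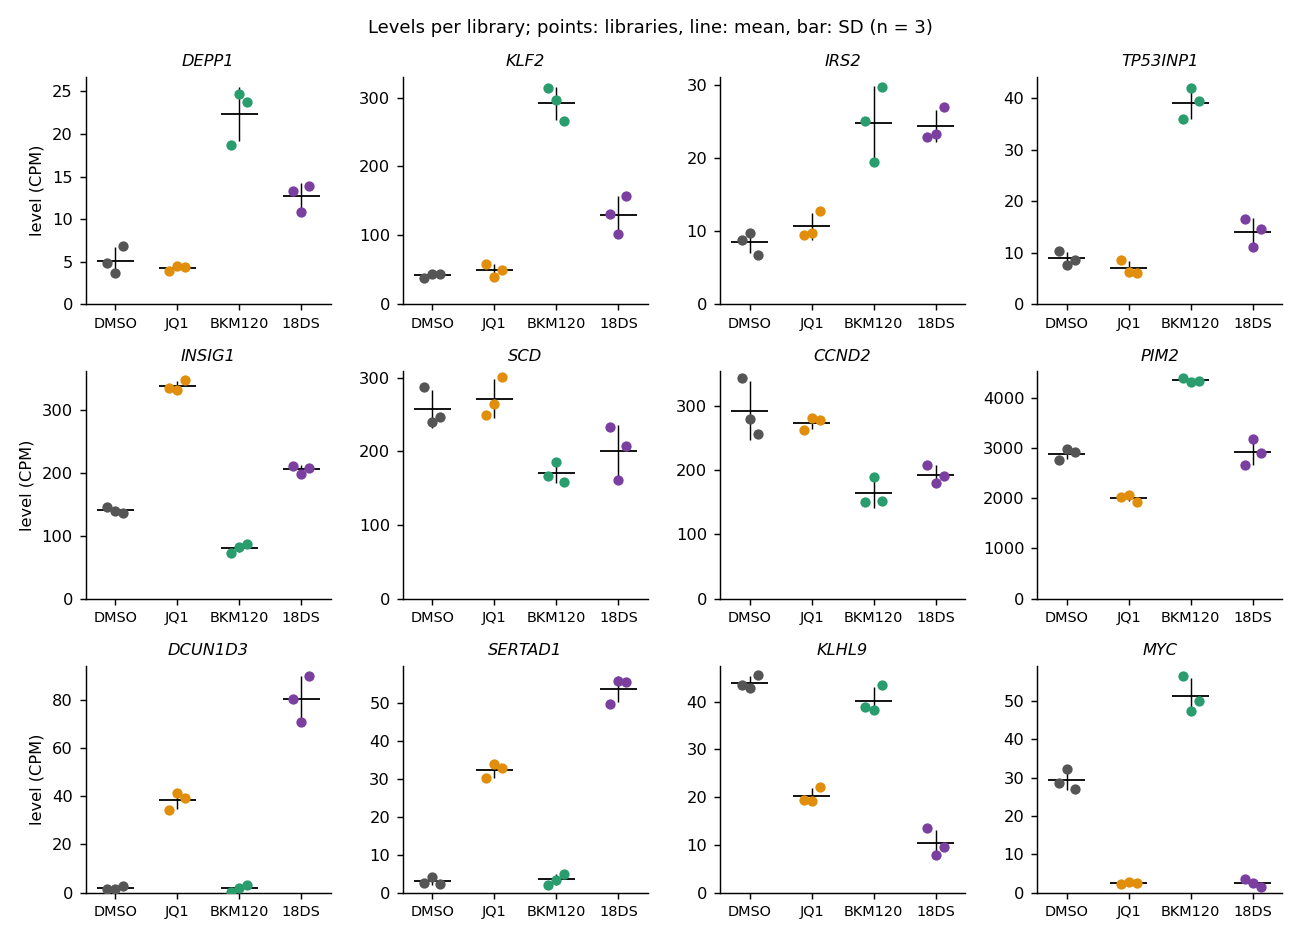
Levels in CPM (y axis, linear from 0) of 12 genes in the 4 groups; each point is 1 library, the line the mean and the bar the SD (n = 3). DEPP1, KLF2, IRS2 and TP53INP1 are higher with BKM120 and 18DS than with DMSO and JQ1, DCUN1D3 and SERTAD1 are higher with JQ1 and again with 18DS, and MYC lies between 1.42 and 3.66 CPM with either BET inhibitor.

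Of 49 tested genes of the insulin receptor, PI3K, AKT and mTOR pathway itself 0 were lower, with a list median of 0.09. Higher were 4 (8.16%, against 2.37% of all tested genes). Besides IRS2 these were AKT1S1, INPPL1 and GSK3A. AKT1S1 (PRAS40), an AKT substrate that restrains mTORC1, was at 7.22, 6.37 and 8.68 CPM with JQ1 and 13.95, 15.6 and 13.3 CPM with 18DS (0.92, SE 0.18, edgeR adjusted p = 0.00239), without overlap and in every fit. INPPL1 (SHIP2), a phosphatase of PI3K's lipid product, and GSK3A, a kinase inhibited by AKT, differed by 0.34 and 0.54. Both lost their calls with library totals and without 18DS replicate 2 or 3 or JQ1 replicate 1 or 3. INPPL1 also lost its call without JQ1 replicate 2, with GC offsets, with limma-voom and without the robust option. GSK3A also lost its call without 18DS replicate 1. With 1 library left out their adjusted p reached 0.183 and 0.164. The list's count was 2 with library totals and without 18DS replicate 2, 18DS replicate 3, JQ1 replicate 1 or JQ1 replicate 3.

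Among 37 tested sterol and fatty acid synthesis genes, 4 were lower with 18DS and 0 higher, with a median of -0.04. INSIG1 (ENSG00000186480), an SREBP target that retains SREBP in the endoplasmic reticulum, had the smallest adjusted p of all named genes. It stood at 335, 332 and 347 CPM with JQ1 and 211, 198 and 208 CPM with 18DS (log2 fold change -0.72, SE 0.08, edgeR adjusted p = 3.37e-07). The vehicle libraries held 146, 139 and 135 CPM and the BKM120 libraries 72.9, 81.4 and 86.4 CPM, so the 18DS libraries lay between those of vehicle and those of JQ1. The ranges of the 4 groups did not touch. INSIG1 was called in every fit.

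SCD, which desaturates fatty acids, was at 249.6, 264 and 302 CPM with JQ1 and 233, 162 and 207 CPM with 18DS (-0.44, SE 0.11, edgeR adjusted p = 0.03496). Its groups did not overlap, but the call was lost without 18DS replicate 2 or 3 and without JQ1 replicate 2 or 3 (adjusted p of up to 0.1501). The list's count was 2 without 18DS replicate 2 or 3 or JQ1 replicate 2 or 3, 4 with GC offsets and 7 with library totals.

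Of 16 tested genes known to respond to BET inhibitors 5 were higher with 18DS than with JQ1 and 0 lower, and the list's median of 0.28 compares with 1.40 for JQ1 against vehicle, a comparison that shares the JQ1 libraries and in which 12 of the 16 were higher. JQ1 against vehicle called 6.08% of all tested genes, 2.63% higher and 3.45% lower. DCUN1D3 (ENSG00000188215), a regulator of cullin neddylation, was at 1.62, 1.77 and 2.83 CPM with vehicle, 34.4, 41.3 and 39.2 CPM with JQ1 and 80.2, 70.6 and 89.5 CPM with 18DS. It was 2.09-fold higher with 18DS than with JQ1 (1.06, SE 0.14, edgeR adjusted p = 6.34e-05), and its BKM120 libraries held 0.483, 2.07 and 3.05 CPM. SERTAD1, a transcriptional co-regulator that binds CDK4, was at 30.1, 33.8 and 32.8 CPM with JQ1 and 49.6, 55.7 and 55.4 CPM with 18DS (0.73, SE 0.13, edgeR adjusted p = 0.000871). For both genes the BKM120 and vehicle libraries lay far below either BET inhibitor and the calls held in every fit.

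Histone transcripts with a poly(A) tail, 3 of which are also among the 5 called BET response genes, were higher for 5 of 24 tested members and lower for 0, with a median of 0.34. H1-2, a linker histone, was at 145, 135 and 139 CPM with JQ1 and 180.1, 211 and 185 CPM with 18DS (0.46, SE 0.08, edgeR adjusted p = 0.00114), and was called in every fit. The core histone genes H3C4 (0.93, SE 0.20), H2AC20 (0.68, SE 0.15) and H2BC5 (0.61, SE 0.17) lost their calls without JQ1 replicate 3, with adjusted p of up to 0.0654, 0.057 and 0.218 when 1 library was left out. The count of the histone list was 1 without JQ1 replicate 3, 2 without JQ1 replicate 2 or 18DS replicate 3, and 4 without 18DS replicate 2 or with GC offsets. That of the BET response list was 3 without 18DS replicate 3 or JQ1 replicate 2 or 3, and 5 without 18DS replicate 2.

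Standard markers of BET inhibition were not called. HEXIM1, the P-TEFb inhibitor often used to follow BET inhibitors in cells, was at 108, 86.6 and 104 CPM with JQ1 and 124, 101 and 140.1 CPM with 18DS, with overlapping libraries (0.29, 95% confidence interval 0.09 to 0.49, edgeR adjusted p = 0.0817). BRD2, a BET protein gene, was at 202, 215 and 208 CPM and 229.6, 256 and 256 CPM without overlap (0.25, 0.09 to 0.41, edgeR adjusted p = 0.0599). HEXIM1 was called without 18DS replicate 2 and without an expression filter, and BRD2 was called without 18DS replicate 1, with upper-quartile factors and by DESeq2. MYC stood at 2.24, 2.91 and 2.46 CPM with JQ1 and 3.66, 2.46 and 1.42 CPM with 18DS, against 28.6, 32.2 and 27.2 CPM with vehicle. The interval of the difference between the compounds, -0.59 to 0.63 log2 units (edgeR adjusted p = 0.983), allows a difference in either direction. IRF4, the survival factor of myeloma cells, was at 194, 196 and 199.8 CPM and 196, 188 and 188 CPM (-0.04, -0.19 to 0.10, edgeR adjusted p = 0.794).

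Of 27 tested genes of the BET, P-TEFb and 7SK complexes 1 was higher and 2 were lower, and the median was -0.15. CCNT2, a cyclin subunit of P-TEFb, was at 17.4, 18.01 and 23.6 CPM with JQ1 and 13.1, 11.1 and 12.2 CPM with 18DS (-0.71, SE 0.16), overlapping the 11.3, 12.2 and 14.8 CPM of vehicle. ELL, an elongation factor that works with P-TEFb, was lower (-0.56, SE 0.14) and MEPCE, the capping enzyme of 7SK RNA, higher (0.41, SE 0.11). All 3 calls were lost without JQ1 replicate 3 (adjusted p 0.106 to 0.145 at their highest), and those of ELL and MEPCE without 18DS replicate 2. With GC offsets MEPCE also lost its call (0.108), and 0 of the 27 were higher and 3 lower. Of 12 MAX network genes 0 were called by edgeR, 0 by limma-voom and 0 by DESeq2. An unadjusted edgeR p under 0.05 was found for 3 of them, against 2541 of all 13180 tested genes. MXD1 came nearest (0.59, edgeR adjusted p = 0.0912). Of 62 MYC-activated genes 3 were higher and 6 lower, with a median of -0.02, and these counts were 0 to 4 and 1 to 8 with 1 library left out. Among them were MCM5, of the replicative helicase (0.41), EIF4E, the mRNA cap-binding factor (-0.40), and TFRC, the transferrin receptor (-0.39), whose calls were each lost without JQ1 replicate 3. MCM5 and EIF4E also lost theirs without 18DS replicate 2, and TFRC with GC offsets.

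Genes of myeloma and plasma cells moved in both directions, with 5 of 39 tested members higher and 2 lower. The higher count was 3 without 18DS replicate 2 or 3 and 2 without JQ1 replicate 2 or 3, the lower count was 1 in these 4 fits, and without 18DS replicate 1 they were 6 and 4. PIM2 (ENSG00000102096), an abundant kinase that sustains growth of myeloma cells, was at 2034, 2056 and 1933 CPM with JQ1 and 2659.7, 3175 and 2907 CPM with 18DS (0.54, SE 0.07, edgeR adjusted p = 1.38e-05). The vehicle libraries held 2765, 2989.8 and 2915 CPM and the BKM120 libraries 4405, 4314 and 4345 CPM, so that 18DS overlapped vehicle while JQ1 lay below and BKM120 above it. ST3GAL6, a sialyltransferase that contributes to myeloma cell homing, followed the same order, with 24.9, 25.6 and 24.99 CPM with JQ1, 35.9, 37.05 and 35.7 CPM with 18DS, 34.2, 36.7 and 35.3 CPM with vehicle and 93.7, 88.1 and 92.5 CPM with BKM120. Its 18DS and JQ1 libraries did not overlap (0.52, SE 0.10, edgeR adjusted p = 0.00276).

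CCND2, the D-type cyclin of many myelomas, was lower, at 262, 282 and 278 CPM with JQ1 and 209, 180.5 and 190.3 CPM with 18DS (-0.50, SE 0.10, edgeR adjusted p = 0.00512). PIM2, ST3GAL6 and CCND2 were called in every fit. The chemokine receptor gene CCR1 was at 97.5, 85.04 and 91.1 CPM with vehicle, 15.996, 18.01 and 18.6 CPM with JQ1 and 12.97, 11.6 and 11.7 CPM with 18DS (-0.54, SE 0.13, edgeR adjusted p = 0.0183). FGFR3, the receptor kinase overexpressed in myelomas with the t(4;14) translocation, differed by 0.26 (SE 0.07, edgeR adjusted p = 0.0378). The call of CCR1 was lost without 18DS replicate 2 or 3 or JQ1 replicate 2 or 3 (adjusted p of up to 0.118), and that of FGFR3 also with library totals and GC offsets (0.277 with the offsets).

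Ribosomal protein and translation factor genes were higher with 18DS for 20 of 90 tested members and lower for 0, with a median of 0.13. The differences were small against their own levels. RPL27A was at 8780.5, 7987 and 8331 CPM with JQ1 and 10096, 11709 and 11850.1 CPM with 18DS (0.42, SE 0.08, edgeR adjusted p = 0.00126). RPL10 (0.42, SE 0.07) and RPL29 (0.49, SE 0.09) differed by a similar amount, and these 3 genes were called in every fit. Transcripts of ribosomal proteins have many pseudogene copies, and how reads with several matches were counted is not given in the sources used here. For this list the count was 11 without 18DS replicate 2, 10 without replicate 3, 30 without replicate 1, 7 and 8 without JQ1 replicates 2 and 3, 13 with library totals and 17 with GC offsets.

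Factors that assemble ribosomes went the other way, with 0 of 91 higher, 8 lower and a median of -0.09. UTP3, of the small subunit processome, was at 272, 256 and 249 CPM with vehicle, 159, 158 and 166 CPM with JQ1 and 130.4, 106 and 127 CPM with 18DS (-0.41, SE 0.08, edgeR adjusted p = 0.00494). BRIX1, needed for the large subunit, was at 41.5, 47.7 and 49.7 CPM and 37.2, 33.9 and 28.4 CPM (-0.48, SE 0.11). IMP3, another processome member (-0.31, SE 0.08), and SURF6, a nucleolar protein gene (-0.57, SE 0.15), were also lower. None of these 4 calls held without JQ1 replicate 3 (adjusted p 0.0526 to 0.153 at their highest), and those of IMP3 and SURF6 were also lost without 18DS replicate 2. Without JQ1 replicate 3 the list's count was 0, and it was 3 without 18DS replicate 2, 1 without replicate 3, 2 and 3 without JQ1 replicates 1 and 2, 12 without 18DS replicate 1, 13 with library totals and 5 with GC offsets.

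Immediate early genes, which respond within minutes to signals, were higher for 5 of 34 tested members and lower for 0. The count was 2 without 18DS replicate 3 or JQ1 replicate 2, 3 without JQ1 replicate 1 or 3, and 3 with 1 lower both with library totals and with GC offsets. JUN, an AP-1 subunit, was at 27.2, 25.8 and 27.99 CPM with vehicle, 54.01, 53.3 and 50.4 CPM with JQ1 and 79.2, 74.8 and 77.5 CPM with 18DS (0.56, SE 0.09, edgeR adjusted p = 0.000312), in 3 ranges that did not touch, and was called in every fit. JUNB, its relative, was at 46.1, 44.4 and 59.05 CPM with JQ1 and 67.4, 64.3 and 65.7 CPM with 18DS (0.39, SE 0.11, edgeR adjusted p = 0.0313), and lost its call with GC offsets (adjusted p = 0.225), with library totals and without 18DS replicate 3 or JQ1 replicate 1 or 2. IER3, a stress-responsive survival gene, stood at 4.64, 4.73 and 5.44 CPM and 8.46, 11.1 and 11.1 CPM (1.03, SE 0.24). The overlapping antisense gene IER3-AS1 had nearly the same counts (1.03), and without a stated strand setting the 2 identifiers cannot be told apart. Their calls were lost without 18DS replicate 3 or JQ1 replicate 2 or 3 (adjusted p of up to 0.0647).

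In the BCL2 family 3 of 13 tested genes were higher and 0 lower. Besides BBC3 and BCL2L11 this was PMAIP1 (NOXA), also a killer protein gene, at 17.03, 16.2 and 18.1 CPM with JQ1 and 23.96, 23.7 and 25.7 CPM with 18DS (0.51, SE 0.14, edgeR adjusted p = 0.0293). The survival genes MCL1 (0.06, -0.09 to 0.20) and BCL2 (-0.04, -0.37 to 0.30) were not called (edgeR adjusted p = 0.731 and 0.938). PMAIP1 lost its call without any 1 of the libraries except 18DS replicate 1 (adjusted p of up to 0.129). The family's count was 0 without 18DS replicate 3 or any 1 JQ1 library and 2 without 18DS replicate 2. Of 24 p53 target genes 4 were higher and 1 was lower. The 4 were TP53INP1, BBC3, PMAIP1 and SESN2, each of which is also counted in another list here. AEN, an apoptosis-linked nuclease, fell (-0.53, SE 0.14), a call lost without 18DS replicate 1 or 3 or any 1 JQ1 library (adjusted p of up to 0.103), and the 4 higher became 1 without 18DS replicate 3 or any 1 JQ1 library and 2 without 18DS replicate 2. CDKN1A, the p21 cell cycle inhibitor, was at 17.2, 16.2 and 14.2 CPM with JQ1 and 17.5, 14.9 and 17.5 CPM with 18DS (0.08, -0.25 to 0.41, edgeR adjusted p = 0.849).

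Cell cycle lists showed few differences, with 2 of 51 DNA replication and G1/S genes higher and 2 lower, and 0 of 64 mitotic genes higher and 1 lower. POLD3, an accessory subunit of DNA polymerase delta, was at 20.98, 23.3 and 21.4 CPM with JQ1 and 12.97, 12.8 and 10.7 CPM with 18DS (-0.84, SE 0.15, edgeR adjusted p = 0.00126) and was called in every fit. The mitotic kinase gene AURKA was at 67.3, 64.6 and 57.9 CPM and 50.7, 45.3 and 47.1 CPM (-0.40, SE 0.09, edgeR adjusted p = 0.0112), a call lost without 18DS replicate 3 or JQ1 replicate 1 or 2 (adjusted p of up to 0.0655). LIG1, the replicative DNA ligase (0.48), and MCM3, a helicase subunit (-0.46), both lost their calls without JQ1 replicate 2 or 3, and MCM3 also without 18DS replicate 2 or 3 or JQ1 replicate 1. Without 18DS replicate 1 the mitotic list had 5 lower and the replication list 4. Of 12 tubulin genes 0 were called by edgeR, 0 by DESeq2 and 1 by limma-voom. An unadjusted edgeR p under 0.05 was found for 5 of them, against 2541 of all 13180 tested genes. TTC5, which is listed with them as the factor of tubulin mRNA decay, came nearest (-0.47, edgeR adjusted p = 0.139). Stress lists were near the background, with 1 of 27 heat shock genes higher, 2 of 40 ATF4 targets higher, 1 higher and 1 lower of 36 unfolded protein response genes, 1 of 50 autophagy and lysosome genes higher, and 1 higher and 1 lower of 31 glycolysis and hypoxia genes. These counts were all 0 without JQ1 replicate 2 or 3 except that of heat shock genes. Of these genes AHSA1, a co-chaperone of HSP90, was called in every fit, at 255, 252 and 259 CPM with JQ1 and 313, 374 and 365 CPM with 18DS (0.46, SE 0.09, edgeR adjusted p = 0.00194). The others were SESN2 (0.37) and ATF5 (0.37) of the ATF4 targets, the chaperone CALR (0.37) and the translocon factor SEC63 (-0.28) of the endoplasmic reticulum, the lysosomal enzyme CTSA (0.47), and the glycolytic genes GAPDH (0.39) and PFKFB3 (-0.45). All 7 lost their calls without 18DS replicate 3 and without JQ1 replicate 3, all but ATF5 also lost them without 18DS replicate 2, and ATF5, SESN2, CTSA and SEC63 with GC offsets. The call of SEC63 was lost in 12 of the 17 settings, the replicate block among them (edgeR adjusted p = 0.0501). GAPDH shares its counts with another identifier. NF-kB feedback genes had 2 of 17 higher, TNIP1 (0.76) and IER3, and ERK feedback genes 2 of 12, IER3 again and FGFR3. Both counts were 0 without 18DS replicate 3 or JQ1 replicate 2, and DESeq2's Wald test called 0 of the NF-kB list. TNIP1 lost its call without 18DS replicate 3 or JQ1 replicate 1 or 2. Lymphocyte trafficking genes had 1 higher and 1 lower of 21, KLF2 and CCR1.

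**Figure D4:**
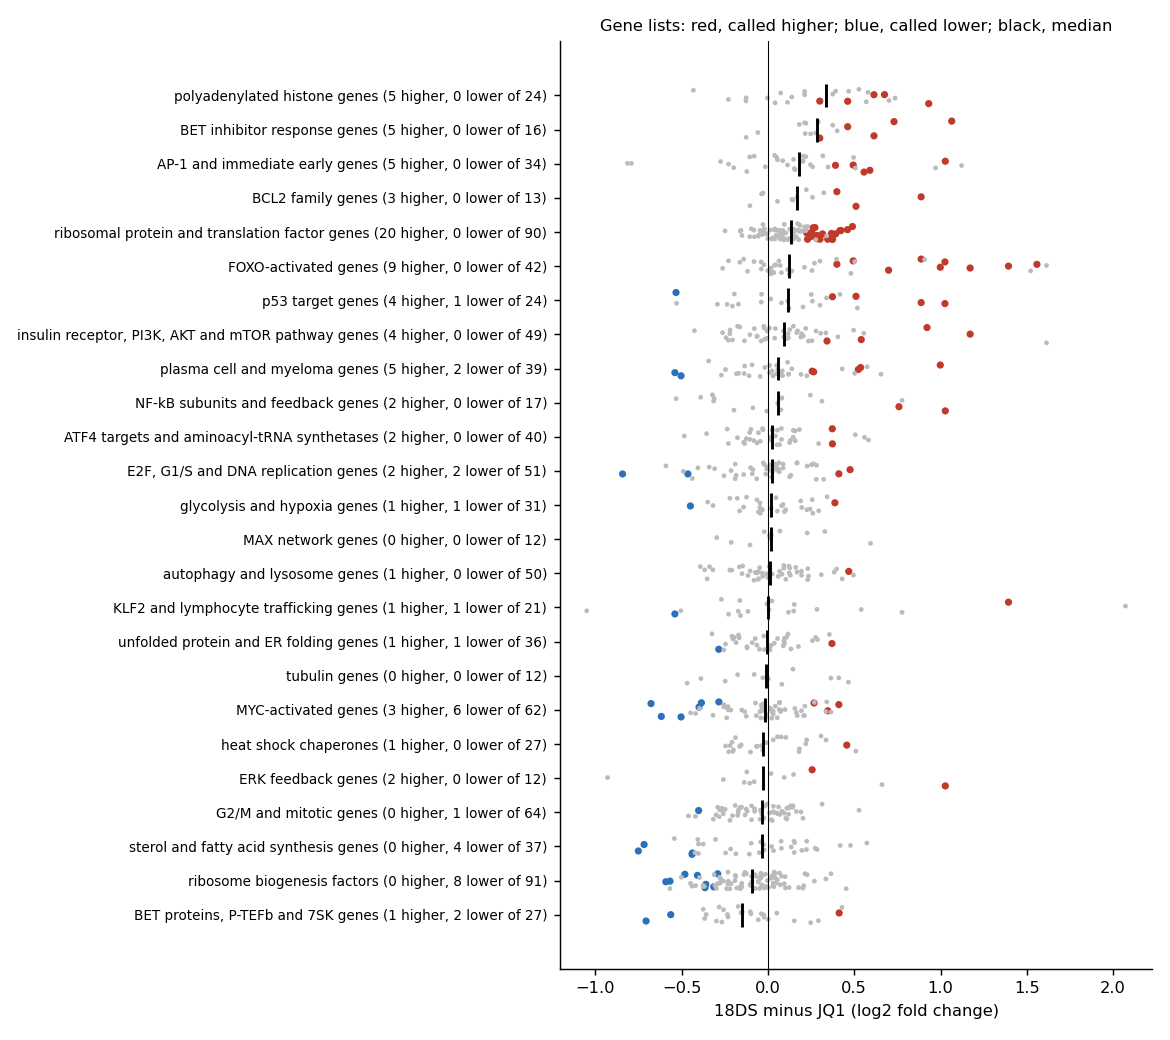
Log2 fold change of 18DS against JQ1 (x axis) for the tested members of 25 gene lists (y axis), each point a gene, red if called higher and blue if called lower, with the list median as a black bar. FOXO-activated genes (9 of 42 called higher) have a median of 0.12 and ribosomal protein genes (20 of 90) one of 0.13, and the first list reaches farther right.

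Outside the lists, the largest changes among called genes (at least 5 CPM, no overlap of libraries) included LINC00861, a long noncoding RNA, at 1.55, 4.002 and 2.85 CPM with JQ1 and 6.77, 10.4 and 12.3 CPM with 18DS (1.80, SE 0.26, edgeR adjusted p = 6.34e-05). BOLA1, a mitochondrial iron-sulfur cluster factor gene, was at 5.16, 5.46 and 6.09 CPM and 11.98, 9.66 and 11.2 CPM (0.97, SE 0.21, edgeR adjusted p = 0.00807). Both were called in every fit. The pseudogenes ATP5F1AP2 (1.17) and TPT1P9 (1.03) are among the 15 largest increases, but reads of their parent genes may be counted there, and ATP5F1AP2 lost its call without 18DS replicate 2.

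Of the largest decreases, KLHL9 (ENSG00000198642), an adaptor of cullin 3 ubiquitin ligases, was at 43.4, 42.8 and 45.7 CPM with vehicle, 19.4, 19.3 and 22.1 CPM with JQ1 and 13.5, 7.901 and 9.63 CPM with 18DS (-0.96, SE 0.15, edgeR adjusted p = 0.000289), and 38.96, 38.2 and 43.5 CPM with BKM120. GMEB2, a glucocorticoid modulatory element binding protein gene, was at 15.996, 18.2 and 20.3 CPM with JQ1 and 9.87, 9.13 and 10.1 CPM with 18DS (-0.91, SE 0.16, edgeR adjusted p = 0.000795). ADO, which oxidises cysteamine and N-terminal cysteines, was at 16.9, 20.01 and 16.7 CPM and 10.99, 9.66 and 8.84 CPM (-0.85, SE 0.16, edgeR adjusted p = 0.00225). These 3 decreases were called in every fit. Their libraries did not overlap, which the rule that picked them required.

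PLD6, a mitochondrial phospholipase of the piRNA pathway, had the largest decrease by this rule, from 7.91, 8.19 and 10.9 CPM with JQ1 to 3.101, 5.27 and 4.58 CPM with 18DS (-1.09, SE 0.23, edgeR adjusted p = 0.00512), a call lost without JQ1 replicate 3 (adjusted p = 0.0747). IRF2BPL, a transcriptional regulator, followed at 109, 116 and 123 CPM and 71.5, 42.1 and 53.8 CPM (-1.05, SE 0.23, edgeR adjusted p = 0.0425), and its call was lost without 18DS replicate 2 or 3, without any 1 JQ1 library (adjusted p of up to 0.142), with a replicate block (0.0563) and with GC offsets (0.0655). Other decreases by the rule were MARS2, the mitochondrial methionyl-tRNA synthetase (-0.93), TADA1, a subunit of the SAGA coactivator (-0.85), and PHF13, a reader of histone H3 methylation (-0.85). All 3 calls were lost without 18DS replicate 3 and without JQ1 replicate 3 (adjusted p of up to 0.119, 0.0839 and 0.157), and that of TADA1 also without 18DS replicate 2. CAND2 (-0.82), which binds cullins, and the zinc finger genes ZNF420 (-0.84) and ZBTB8A (-0.82) completed these, beside the pseudogenes HNRNPUP1 (-1.01), TERF1P7 (-0.98) and RPL36AP21 (-0.85), and all 6 lost their calls without 18DS replicate 3. All but HNRNPUP1 also lost them without 18DS replicate 2, and ZNF420 with GC offsets.

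BKM120 against vehicle sets a PI3K inhibitor against its vehicle in cells without a BET inhibitor, in 6 libraries that are not part of the comparison of 18DS with JQ1. The dose of BKM120 was 1 µM and that of 18DS 250 nM, so the sizes of the steps are not at a matched dose. BKM120 changed 1082 genes (8.21%), 536 higher (4.07%) and 546 lower (4.14%). Of the 313 genes higher with 18DS than JQ1, 126 were also higher with BKM120 (40.3% of the former and 23.5% of the latter), and of the 235 lower genes 111 were also lower (47.2% and 20.3%). One gene, JUNB, was called in opposite directions. Across 13180 genes, which are not independent replicates, Pearson's r of the 2 log2 fold changes was 0.34, and it was 0.54 across the 9818 genes at or above 5 CPM. Without 18DS replicate 2 it was 0.24 across the tested genes, and 124 genes were called in both steps in the same direction in place of 237.

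All 9 called FOXO-list genes were higher with BKM120 too, among them DEPP1 (2.12), KLF2 (2.80), TP53INP1 (2.13), BBC3 (2.25) and IRS2 (1.53). Likewise the 4 called sterol genes were lower with BKM120, with -0.81 for INSIG1 and -0.60 for SCD. Of the list members 22 of 42 FOXO-activated genes were higher with BKM120 and 1 lower, and 1 of 37 sterol genes higher and 10 lower. The BET response list had a median of 0.11 with BKM120, and DCUN1D3 differed by -0.16 (edgeR adjusted p = 0.865). For DCUN1D3 the difference between the 2 steps was 1.23 (SE 0.43, edgeR adjusted p = 0.387), so the steps were not shown to differ. Of the genes that BKM120 did not call, 166 of 186 higher genes and 104 of 124 lower genes had the same sign in both steps, as did 8743 of all 13180 tested genes.

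**Figure D5:**
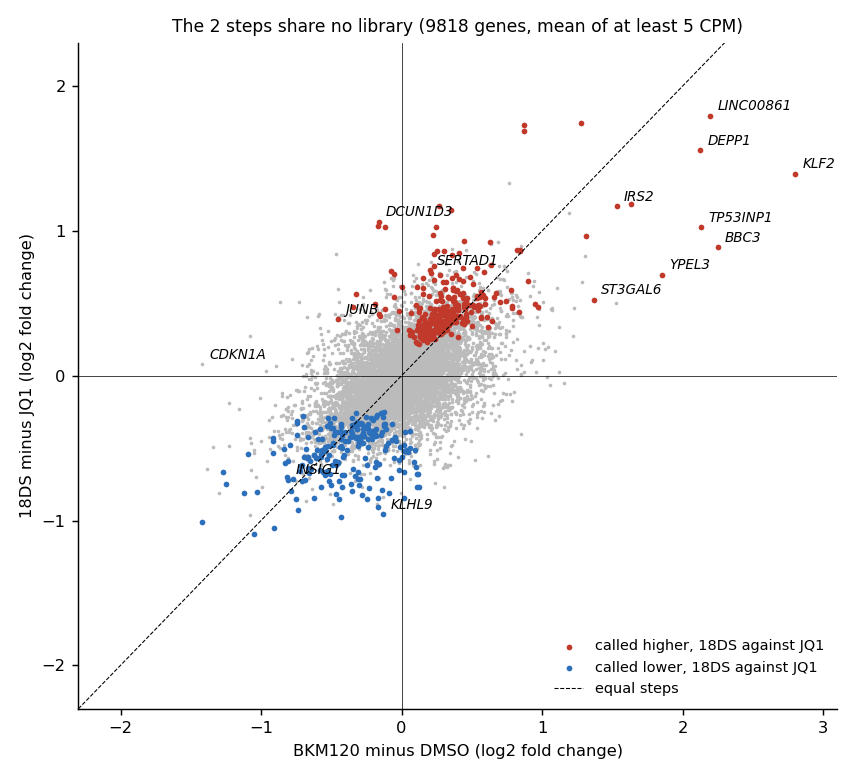
Log2 fold change of 18DS against JQ1 (y axis) against that of BKM120 against DMSO (x axis) for 9818 genes averaging 5 CPM or more, each a point, red and blue where 18DS against JQ1 was called higher and lower; the dashed line marks equal steps and r is 0.54. FOXO-list genes such as KLF2 and BBC3 lie right of the line and DCUN1D3 and KLHL9 lie near a BKM120 change of 0.

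A direct test of the difference between the steps, (18DS minus JQ1) minus (BKM120 minus DMSO), called 16 of 13180 genes (0.121%), of which KLF2, ST3GAL6, JUNB and CDKN1A are named here. KLF2 rose by 1.39 from JQ1 to 18DS and by 2.80 from vehicle to BKM120, reaching 313, 296 and 266 CPM, and the difference was -1.41 (SE 0.22, edgeR adjusted p = 0.0321). ST3GAL6 rose by 0.52 and 1.37 (difference -0.85, SE 0.14, edgeR adjusted p = 0.00209). CDKN1A was lower with BKM120, at 2.58, 3.25 and 4.31 CPM against 10.5, 7.57 and 8.83 CPM with vehicle (-1.42), while 18DS and JQ1 libraries overlapped, and the difference was 1.496 (SE 0.28, edgeR adjusted p = 0.0145). For DEPP1 (-0.57, SE 0.30), IRS2 (-0.36, SE 0.24), INSIG1 (0.09, SE 0.11) and PIM2 (-0.05, SE 0.10) the difference between the steps was not called (edgeR adjusted p = 0.6903, 0.7897, 0.912 and 0.948). TP53INP1 (-1.11, edgeR adjusted p = 0.0558), BBC3 (-1.36, 0.0689) and BTG1 (-0.46, 0.0639) were near the threshold with the smaller step from JQ1 to 18DS, and KLHL9 was near it with the larger one (-0.96 against -0.13, difference -0.83, edgeR adjusted p = 0.0648).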

How the data were processed

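The authors deposited raw, unnormalized whole-number counts for each Ensembl gene and library. The submitters' processing notes name HISAT2 2.1.0 and genome build hg19, featureCounts with Subread, and also SAMtools 1.9, cutadapt 1.7, FastQC 0.11.5, limma and bcl2fastq 2.17.1.14. For annotation release, strand setting and reads with several matches, the setting is not given in the sources used here. Because the reference is GRCh38, gene coordinates on hg19 are not given, and promoter positions are those of RefSeq on GRCh38.p14. Transcript GC content and length, exon number and gene type came from the GENCODE annotation of GRCh38. Symbols matched 39560 of 63152 identifiers.

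All 12 libraries entered 1 fit in R 4.3.3 with edgeR 4.0.16 (robust quasi-likelihood test, TMM scaling, filterByExpr with minimum count 10 and minimum total 15, residual degrees of freedom 8). Log2 fold changes are estimates of that fit and CPM values use TMM-scaled totals, except marker sums, which use library totals. P-values were Benjamini-Hochberg adjusted over 13180 genes within a contrast, and intervals are 95% intervals. P-values measure the spread between libraries of 1 cell line. The test was also run on simulated counts. The outcome is not reported here, and no conclusion is drawn from it about libraries as unlike each other as those described above.

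The comparison, gene lists and rules were chosen with earlier results of these data known. Named genes are the called genes with the 15 largest increases and 15 largest decreases (with a symbol, averaging 5 CPM or more, libraries not overlapping), a set of genes given by name, and up to 4 called members of each list with the smallest adjusted p (without one, the member with the smallest p). Of these 88 tested genes nearly all are given, and a few are not reported here. Each result was recomputed with library totals, with upper-quartile factors, with DESeq2 1.42.0 (size factors alone, or its Wald test), with limma-voom (limma 3.58.1), with 2 other expression filters, no robust option, the 6 libraries alone, a replicate block, each of the 6 libraries left out, and GC content offsets (loess per library), the last chosen after seeing the data. Figures were drawn with matplotlib 3.10.9 in Python 3.11.15.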

Additional observations from a re-analysis of the deposited data

Results flagged for a closer look

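For 4 named genes the step from JQ1 to 18DS differed from the step from DMSO to BKM120 by the test of the difference itself. It was -1.41 log2 units for KLF2 and -0.85 for ST3GAL6, both with the smaller rise from JQ1 to 18DS. For JUNB it was 0.85, with 0.39 from JQ1 to 18DS and -0.45 from DMSO to BKM120, and for CDKN1A it was 1.496, with 0.08 and -1.42. The doses of 18DS and BKM120 differed, and their part in these differences was not tested.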

How the results depend on the processing

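The 548 genes called became 105 to 1027 when 1 library was left out, those called higher 67 to 584, those called lower 33 to 443 and those shared with BKM120 against DMSO 60 to 383. FOXO-list calls became 5 to 9, sterol-list calls 2 to 5 and BET response calls 3 to 6. The named genes called for the difference between the 2 steps, 4 in the main fit, became 3 to 5. Library totals gave 208 higher, 414 lower and 7 sterol genes. DESeq2's Wald test called 5 FOXO-list genes. Without an expression filter 487 genes were higher, 372 were shared with BKM120 and 7 named genes differed between the steps, as many as the 7 with upper-quartile factors. The correlation of the 2 steps was 0.0110 without a filter, 0.540 over genes averaging 5 CPM or more, and 0.243 to 0.338 with 1 library left out. Beyond the smaller or larger set of genes or libraries in such a fit, the cause was not tested.

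The difference for MYC, not called in any fit, was -0.024 with library totals, -0.072 with limma-voom, -0.0017 with GC offsets and -0.383 to 0.309 with 1 library left out. That for BCL2, also never called, was 0.010 with GC offsets and -0.170 to 0.082 with 1 library left out. Deviations of same-numbered 18DS and JQ1 libraries from their group means had correlations of 0.011, 0.092 and 0.0045. Those of differently numbered libraries had -0.053 to 0.049. With 3 libraries in each group these values cannot tell whether the numbers mark a pairing. With a replicate block 522 genes were called, and of the named genes IRF2BPL and SEC63 lost their calls. Of 78 named calls 13 were lost with GC offsets and 30 without 18DS replicate 2.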

Other observations

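Protein-coding genes annotated with a single exon were more frequent among called genes than among all tested ones, 17 of 237 higher genes (7.17%) and 15 of 214 lower genes (7.01%) against 1.84%. Among the lower ones were KLHL9, MARS2, ADO, IRF2BPL and UTP3, and among the higher ones JUN, JUNB, H1-2 and H2AC20. The higher ones also held MT-CO2 and MT-ND2, and H3C14 and H3C15, whose levels were nearly the same in every library. The share of single-exon genes was noticed after the values were seen and was not tested. It was 4.25% and 4.33% for BKM120 against DMSO. Genes whose symbol starts with ZNF, most of them zinc finger transcription factors, were called lower in 12 (4.18%) and higher in 3 (1.05%) of 287 tested cases. Of all tested genes 1.78% were lower and 2.37% higher. The ZNF genes had a median of -0.14, and the part of the GC tilt in these values was not tested. Their median was -0.14 for JQ1 against DMSO, which shares the JQ1 libraries, and -0.07 for BKM120 against DMSO.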
